A study of Chlamydomonas reinhardtii with 8 samples.

Results

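The 2 label arrays of the series, titled label1 and label2, are 2-colour hybridizations in which both channels carried RNA of *C. reinhardtii* strain cc125 and both channels bear the same sample label, and they are 2 of the 8 arrays of the whole series. They were chosen by their titles, with no measured value used. On label1 and label2 alike, the Cy5 channel and the Cy3 channel are each labelled cc125 with a sulfur stress time of 24 h, so that label2 and label1 differ in nothing that the sample labels state. The other 6 arrays carried RNA of strain cc3491 taken under sulfur stress in Cy5 (24 h in all titles, but 24, 48, 72, 96, 24 and 48 h for arrays 1 to 6 in another label field) and cc3491 RNA of 0 h in Cy3, and 4 of them, arrays 3 to 6, were bright enough to be set against label2. The cultures were grown in TAP medium, an acetate medium, with or without sulfur, and no separate cultures are named for the channels of label2 or label1. Each label array was hybridized once, so nothing measures a spread between replicates of label2 or of label1, and their channels were compared without a test. The limma test of label2 against arrays 3 to 6, given at the end, borrows its spread from those 4 arrays. The labels of label2 were checked against known sulfur starvation genes, as described further on, and a wrong label of label2 is not excluded.

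*C. reinhardtii* is a unicellular green alga that answers a lack of sulfur in the medium with a well known set of genes. It makes high-affinity sulfate transporters, secretes arylsulfatases that free sulfate from organic esters, replaces cell wall proteins by extracellular polypeptides poor in sulfur amino acids, raises enzymes that reduce sulfate to cysteine, and lowers much of its photosynthetic apparatus. When 1 RNA is labeled with both dyes and hybridized to a single array, every transcript competes with itself for its probe, and the ratio of Cy5 to Cy3 shows the dyes and the noise alone.

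The array held 3 probes for each of 14557 transcript models of the JGI 3.1 annotation. Values are log2 ratios of Cy5 over Cy3 from intensities that the Feature Extraction software had corrected for background and dye, so a value of 1 is a 2-fold higher Cy5 signal, and each ratio is relative to the other transcripts of the same array. A model was taken as measured when probes 1 and 2 were both well above background in at least 1 channel, its log2 ratio is the mean of these probes, and it was taken as differing when both probes were at least 2-fold apart in the same direction. Probe 3 was no part of this rule and serves as a further reading. In RNA from a whole culture, fewer cells with a transcript and less of that transcript per cell cannot be told apart.

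On label2, 965 of 14204 measured models (6.79%) were higher in Cy5 and 1244 (8.76%) were lower, together 15.6%. On label1, none of 11685 measured models was higher and 2 were lower, together 0.0171%. The model log2 ratio spread from -5.96 to 6.28 on label2, with an SD across models of 0.97 and an interquartile range of 0.86. It spread from -2.01 to 2.43 on label1, with an SD of 0.24 and an interquartile range of 0.29. The median was 0.06 on label2 and -0.00 on label1 after the dye correction of the software, which centres it, whereas the uncorrected intensities above background had median log2 ratios of 0.82 on label2 and 0.43 on label1. The larger differences on label2 ran in both directions in nearly equal numbers, with 308 models at least 4-fold higher and 310 at least 4-fold lower in both probes, and 20 and 22 models at least 16-fold.

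Probes 1 and 2 of a model gave like readings on label2 and largely independent ones on label1. Across models their log2 ratios correlated with r = 0.80 on label2 (n = 14204 models) and 0.26 on label1 (n = 11685 models), and 77.5% and 57.7% of the pairs had the same sign. These correlations are across models of 1 array, which share the RNA and the slide. On label2, 4221 models (29.7%) had at least 1 probe beyond 2-fold, the other probe joined it in 52.3% of these, and in 9 models the probes differed by 2-fold in opposite directions. On label1, 98 models (0.839%) had at least 1 such probe. The limit of 2-fold fell in a dense region of label2. The 5 models just inside it had a smaller probe at 1.000 to 1.001 on the log2 scale and the 5 just outside at 0.999 to 1.000, and 217 models lay between 1.9-fold and 2-fold.

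**Figure D1:**
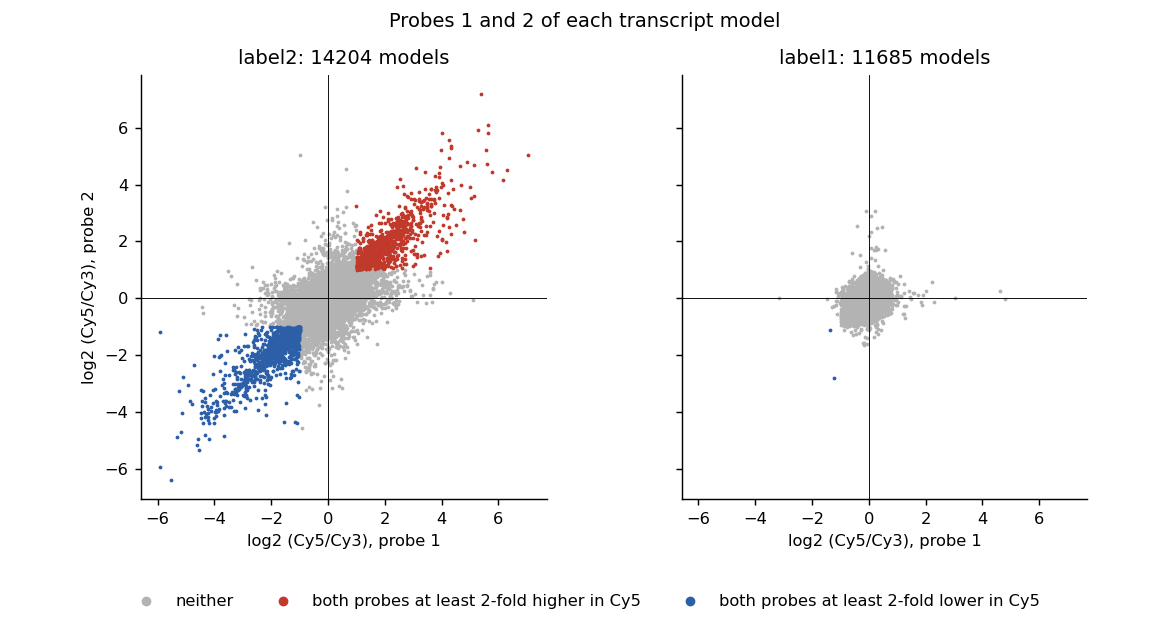
Log2 (Cy5/Cy3) of probe 2 against that of probe 1, 1 point per transcript model, for label2 (left, 14204 models) and label1 (right, 11685 models), with models differing by 2-fold in both probes in colour. The points of label2 follow the diagonal to beyond 5 log2 units on both sides, whereas those of label1 form a compact cloud around 0 with 2 models marked.

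Probe 3 repeated the direction on label2 at a smaller size. Of 963 models higher in Cy5 by probes 1 and 2 with a reading of probe 3, 497 (51.6%) were at least 2-fold higher by probe 3, and 5 were at least 2-fold lower. Of 1234 lower models, 692 (56.1%) were at least 2-fold lower by probe 3 and 14 at least 2-fold higher. Among the 11841 models that did not differ by probes 1 and 2, probe 3 was at least 2-fold higher in 479 (4.05%) and lower in 788 (6.65%). According to the paper, probes of an earlier array generation were added for many models beside the newly designed ones, and gave smaller ratios. The paper left their data out of its analysis, also because many of them had a high potential to cross-hybridize.

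Differences on label2 were most frequent among bright transcripts. When its measured models were split by mean intensity into 4 equal groups, 2.11% of the dimmest differed, then 7.55%, 21.6% and 30.9% of the brightest. Probes 1 and 2 correlated with r = 0.49 in the dimmest group and 0.90 in the brightest. On label1 both differing models lay in the dimmest group (0.0684%), and the share was 0 in the other groups. A saturated spot was present in 94 of the 965 higher and 52 of the 1244 lower models of label2, and where only the brighter channel is saturated the ratio is a lower bound of its size.

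Over the 11644 models measured on both arrays, 1781 differed on label2, 787 higher and 994 lower, and 1 differed on label1. The 787 higher models had a median of 0.06 on label1 and the 994 lower models a median of -0.14, against -0.00 for all 11644. Across these models the log2 ratios of label2 and label1 correlated with r = 0.26. On label2, 382 models (3.28%) exceeded 2.43, the largest absolute log2 ratio that any of them had on label1. Of the models differing on label2, 428 were not measured on label1. There 3.58% of the transcript spots were marked as uneven or as outliers and left out, against 0.0457% on label2. The marked spots made up only part of the gap between the arrays. With them kept, 12771 models were measured on label1 instead of 11685, against 14212 on label2.

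The 4 channels show where the label2 difference lay. Over 38889 probes with signal above background on label2 and label1, the log2 intensities of label2 Cy5 correlated with those of label2 Cy3 at r = 0.944. The Cy3 channel of label2 correlated with Cy5 and Cy3 of label1 at 0.968 and 0.971, and the Cy5 channel of label2 at 0.915 and 0.910. The channels of label1 correlated with each other at 0.995. The Cy5 channel of label2 was therefore the 1 of the 4 least like the others. Ranked within each channel, the models higher on label2 stood a median of 9.79 percentiles above their label1 rank in Cy5 and 1.34 below it in Cy3. The models lower on label2 stood 14.4 percentiles below their label1 rank in Cy5 and 2.28 below it in Cy3. For the 9863 models that did not differ on label2, the median difference in percentile from label1 was -2.82 in Cy5 and -3.54 in Cy3.

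Most genes of sulfur acquisition and assimilation were higher in Cy5 on label2. Of 18 measured members of this list, 14 were higher and 3 were lower, with a median log2 ratio of 2.81, against 6.79% higher, 8.76% lower and a median of 0.06 over all measured models. Their median on label1 was 0.04. Names were known for only 493 of the measured models, mostly from the lists of starvation-responsive genes of the study, and 24.7% of these named models were higher and 23.5% lower. The lists are therefore no independent evidence of a direction.

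**Figure D2:**
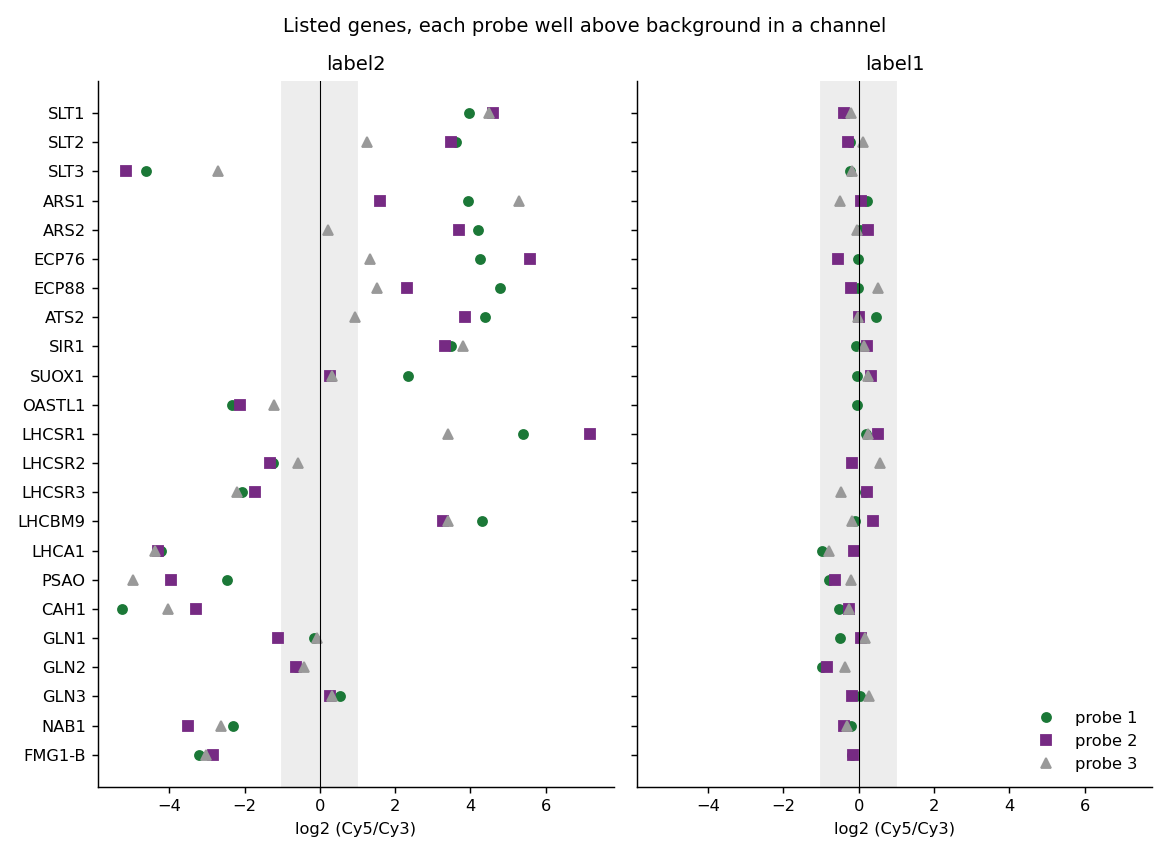
Log2 (Cy5/Cy3) of probes 1, 2 and 3 of the sulfur, light-harvesting, nitrogen and other genes listed, on label2 (left) and label1 (right), with the grey band marking less than 2-fold and saturated spots included. On label2 the sulfate transporters *SLT1* and *SLT2* and the gene *LHCSR1* lie far to the right and *SLT3* far to the left, and on label1 the points of these genes lie inside the band.

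The sulfate transporters did not go the same way. *SLT1*, a sodium/sulfate cotransporter (model 205507), had log2 ratios of 3.96, 4.61 and 4.50 by probes 1 to 3 on label2, against -0.39 and -0.38 by probes 1 and 2 on label1. The Cy5 spots of its probes 1 and 2 were saturated on label2, and its mean of 4.28 stands for at least 19.5-fold. *SLT2* (model 205506) had 3.61, 3.49 and 1.26 on label2, with probe 1 saturated in Cy5, and -0.22 and -0.28 on label1. *SLT3* (model 205505), another transporter of this family, was lower in Cy5, with -4.62, -5.15 and -2.72 on label2 and -0.23 by its remaining probe on label1. Its mean on label2 was -4.89, a 29.6-fold lower Cy5 signal.

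The secreted proteins of sulfur starvation were higher in Cy5 on label2. *ARS1*, a periplasmic arylsulfatase (model 205501), had 3.92, 1.59 and 5.29 by probes 1 to 3, with probe 1 saturated in Cy5, against 0.21 and 0.05 on label1. *ARS2* (model 55757), a second arylsulfatase, had 4.21, 3.69 and 0.21 on label2 and 0.05 and 0.25 on label1. The extracellular polypeptides *ECP76* (model 130684) and *ECP88* (model 137329) had label2 ratios of 4.27 and 5.58, and of 4.78 and 2.33, by probes 1 and 2, with probe 1 of both saturated in Cy5. By probe 3 the values of *ECP76* and *ECP88* were smaller, 1.33 and 1.53. All 4 genes thus differed in both probes of the rule, by unequal amounts.

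Enzymes of sulfate reduction and cysteine metabolism gave mixed readings. *ATS2*, the ATP sulfurylase that activates sulfate (model 133924), had 4.40 and 3.86 by probes 1 and 2 on label2, with 0.93 by probe 3, and 0.46 and 0.01 on label1. *SIR1* (CHLRE_07g351300v5), a sulfite reductase, gave nearly equal readings of 3.50, 3.34 and 3.80 on label2 and -0.08 and 0.21 on label1. *CDO1*, a cysteine dioxygenase that starts the breakdown of cysteine (model 143892), had 4.70, 3.97 and 2.53 on label2 and 0.62 by its remaining probe on label1. *OASTL1* (CHLRE_08g367600v5), a cysteine synthase, was lower, with -2.32, -2.13 and -1.21 on label2, whereas both models named *OASTL4* were higher, with means of 1.82 and 2.30. *SUOX1*, a sulfite oxidase (model 59800), differed by 1 probe only, with 2.34, 0.26 and 0.32. *SAC3*, the Snf1-like kinase of the sulfur response (model 100022), was lower on label2 with -1.30 and -1.38, and had -0.36 and -0.80 on label1.

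The signals of some of these genes in single channels were used to check the sulfur stress label. All genes taken were higher in Cy5 on label2 by the rule, so Cy5 above Cy3 on label2 follows from their choice. Other members of the sulfur list were left out, among them *SLT3*, *OASTL1* and *SAC3*, which were lower, and *SUOX1*, which did not differ. For *ARS1*, *ARS2*, *ATS2*, *ECP76*, *ECP88*, *LHCBM9*, *SIR1*, *SLT1* and *SLT2*, the 18 spots of probes 1 and 2 had a median percentile of 98.0 in Cy5 and 83.5 in Cy3 of label2, and of 65.2 in Cy5 and 66.1 in Cy3 of label1. *ARS1*, which sulfur-fed cells hardly express, had an intensity of 219897 in Cy5 and 14486 in Cy3 of label2 by probe 1, against 96.2 in Cy5 and 83.4 in Cy3 of label1. *ECP76* behaved alike, with 161581 in Cy5 and 8388 in Cy3 of label2, against 122.2 in Cy5 and 123.9 in Cy3 of label1. The defining starvation genes *ARS1*, *ECP76* and *ECP88* thus ranked at or below the 45th percentile in both channels of label1, which is labelled as sulfur-stressed RNA, and were brightest in Cy5 of label2. Probe 2 of *ARS1* was dim also on label2, at percentiles of 39.3 in Cy5 and 8.26 in Cy3. *SLT1*, *SLT2* and *ATS2* ranked between the 67.6th and the 90.4th percentile on label1 in both channels. Dim starvation genes were not particular to label1. In Cy5 of cc3491 arrays 3, 4, 5 and 6, also labelled sulfur-stressed, the same 18 spots had median percentiles of 56.9, 56.9, 53.3 and 53.2. In their Cy3, labelled 0 h, the medians were 44.8, 47.9, 52.7 and 35.8. Only 9, 12, 5 and 4 of the 18 spots were well above background in Cy5 there, against 17 in Cy5 of label1. Many of these ranks are thus ranks among background spots, and are not directly comparable with those of label1. Neither probe of *ARS1* was well above background in the Cy5 channels of arrays 3 to 6. Whether the RNA of a channel was other than its label was not tested.

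**Figure D3:**
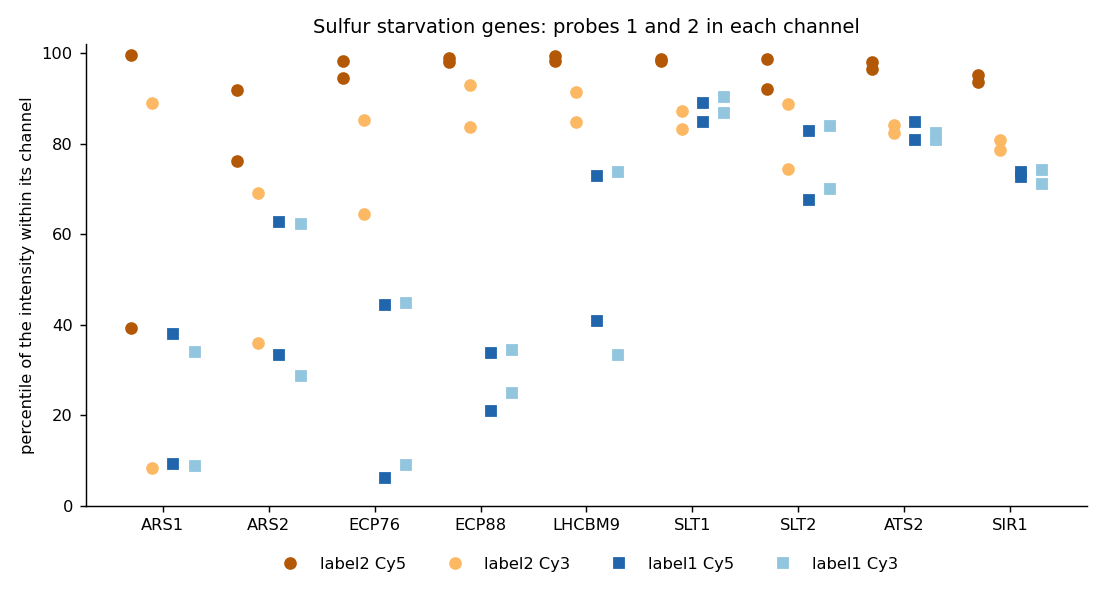
Percentile of the intensity within its channel (vertical axis) for probes 1 and 2 of 9 sulfur starvation genes, in Cy5 and Cy3 of label2 (circles) and Cy5 and Cy3 of label1 (squares). For each probe the label2 Cy5 point lies highest, with a median of 98.0 over the 18. All 9 genes were higher in Cy5 on label2 by the rule, so Cy5 above Cy3 on label2 follows from their choice. The points of *ARS1*, *ECP76* and *ECP88* on label1 lie at or below the 45th percentile.

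The widest ratio on label2 belonged to a photoprotection gene. *LHCSR1* (CHLRE_08g365900v5), a stress-related chlorophyll-binding protein that helps to dissipate excess light, had 5.39, 7.18 and 3.40 by probes 1 to 3 on label2, against 0.20 and 0.52 by probes 1 and 2 on label1. The Cy5 spots of probes 1 and 2 were saturated, so its mean of 6.28 stands for at least 77.9-fold. Its probe 1 intensity was 178819 in Cy5 and 4276 in Cy3 of label2, and 2968 in Cy5 and 2579 in Cy3 of label1. The related *LHCSR3* (CHLRE_08g367400v5) had -2.06, -1.72 and -2.19 on label2 and 0.17 and 0.22 on label1. *LHCSR2* (CHLRE_08g367500v5) had -1.26, -1.31 and -0.57 on label2. *LHCSR2* and *LHCSR3* were thus lower where *LHCSR1* was higher. The early light-inducible protein *ELI3* (model 148916) was higher, with 4.05, 2.91 and 0.65 on label2, with probe 1 saturated in Cy5, and 0.24 and 0.01 on label1.

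Most antenna proteins of both photosystems were lower in Cy5 on label2. Of 9 measured members, 7 were lower, 1 was higher and 1 did not differ, with a median of -3.35 on label2 and -0.06 on label1. Of all named models, 23.5% were lower and 24.7% higher. *LHCB5*, a minor antenna protein of photosystem II (model 184397), had -5.13, -4.05 and -5.06 on label2 and -0.11 and 0.28 on label1. *LHCA1* (CHLRE_06g283050v5), an antenna protein of photosystem I, had -4.23, -4.29 and -4.37 on label2, with probe 1 saturated in Cy3, and *LHCA5* (model 186299) had -4.80, -3.73 and -3.60. *LHCA7* (model 183363) had -4.85, -3.62 and -3.05, and its Cy3 spots of probes 1 and 2 were saturated, so that its mean of -4.24 stands for at least 18.9-fold lower. The higher one was *LHCBM9* (model 184479), a major antenna protein of photosystem II known for its rise in sulfur-starved cells, with 4.32, 3.27 and 3.39 on label2, both Cy5 spots of the rule saturated, and -0.11 and 0.39 on label1. The main antenna gene *LHCBM8* (model 205757) did not differ, with -0.39, -0.52 and -0.50.

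Other genes of photosynthesis were lower on label2 in most cases. Both measured genes of photosystem I, 1 of 2 of photosystem II and 3 of 5 of the cytochrome b6f complex, plastid ATP synthase and electron carriers were lower, and 1 of the 5 was higher. These lists are short, and 23.5% of all named models were lower and 24.7% higher. *PSAH* (model 182959) and *PSAO* (model 193847), both subunits of photosystem I, had -4.44 and -3.60, and -2.47 and -3.95, by probes 1 and 2, with their Cy3 spots saturated. *PSBX*, a small photosystem II subunit (model 182015), read -5.93, -1.19 and -3.72, so the probes set its size apart by more than 4 log2 units. *PETO* of the cytochrome b6f complex (model 185971) had -4.26, -3.79 and -3.87. *FNR1*, ferredoxin-NADP reductase (model 195553), had -3.23, -3.98 and -2.79, with probe 1 saturated in Cy3. The 3 measured Calvin cycle genes were all lower, *GAP3* (a glyceraldehyde-3-phosphate dehydrogenase, probe 1 saturated in Cy3) with a mean of -4.94, *TRK1* (transketolase) with -2.96 and *PRK1* (phosphoribulokinase) with -2.45. The PsbP-like *PSBP2* (model 205882), with -1.85 and -0.32, and the ferredoxin *FDX2* (model 159161), with 1.72 and 0.13, did not differ by the rule.

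A pair of genes in photosynthetic electron transport and tetrapyrrole synthesis went against most others. *CYC6*, cytochrome c6, an electron carrier that takes the place of plastocyanin when copper is short (model 193170), had 3.91, 4.41 and 4.23 on label2, both Cy5 spots of the rule saturated, and 0.26 and 0.35 on label1. Its probe 1 intensity was 226300 in Cy5 and 15076 in Cy3 of label2, and 322.5 in Cy5 and 269.9 in Cy3 of label1. *CPX1*, coproporphyrinogen III oxidase of heme and chlorophyll synthesis (model 53583), had 3.26, 3.25 and 3.08 on label2, with probe 1 saturated in Cy5, and 0.19 and 0.31 on label1. Both are known targets of the copper response of this alga. Within tetrapyrrole synthesis *PBGD1* (porphobilinogen deaminase) and *GSA* (glutamate-1-semialdehyde aminotransferase) were lower, with means of -2.99 and -1.98, and *GUN4*, a regulator of chlorophyll synthesis, had -0.63.

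Genes for other nutrients were mostly lower in Cy5 on label2. All 5 measured genes of phosphate uptake were lower, where 23.5% of all named models were lower and 24.7% higher. Their median was -3.66 on label2 and -0.23 on label1. The phosphate transporter *PTB5* (model 196438) had -4.20 and -4.96 by probes 1 and 2 but 0.07 by probe 3, *PTB3* (model 196465) had -4.05, -3.25 and -3.80, and *PTA3* (model 183357) had -3.62, -3.70 and -3.75. The alkaline phosphatase *PHO1* (model 196484) had -4.47, -3.24 and -3.26. Of 9 genes of the response to low CO2, 6 (66.7%) were lower and 1 (11.1%) was higher, with a median of -1.78. *CAH1*, the periplasmic carbonic anhydrase (model 24120), had -5.26, -3.28 and -4.02 on label2 and -0.53 and -0.27 on label1, where probe 1 was saturated in Cy5. *LCR1*, a regulator of low-CO2 genes (model 205566), had -5.18, -4.70 and -5.66, and *HLA3*, a bicarbonate transporter (model 134058), had -3.68, -3.85 and -0.73. *LCI28*, a low-CO2-induced aldose reductase (model 158244), was the higher one, with 5.14, 4.68 and 3.13 and saturated Cy5 spots.

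Nitrogen genes were few and divided. *NAR1.2*, a transporter of the chloroplast envelope (model 135648), had -5.10, -2.77 and -4.38 on label2, whereas *NAR2*, a component of nitrate transport (model 184660), had 4.05, 2.59 and 2.74. No glutamine synthetase differed by the rule. *GLN3* (model 136895) had 0.54 and 0.27, *GLN1* (CHLRE_02g113200v5) had -0.16 and -1.12 with probe 1 saturated in Cy5, and *GLN2* (CHLRE_12g530650v5) was saturated in both channels, which leaves its ratio unknown. *NAB1* (CHLRE_06g268600v5), a repressor of antenna mRNA translation, was lower with -2.31, -3.51 and -2.62, and *FMG1-B* (CHLRE_09g392867v5), a flagella membrane glycoprotein, with -3.21, -2.83 and -3.03. The names of *GLN1*, *GLN2*, *NAB1* and *FMG1-B* rest on lists in which names are in part set beside the wrong model.

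The histone genes stood out for their number and uniformity. Of 28 measured histone models, 27 were higher in Cy5 on label2 and none was lower, against 24.7% and 23.5% of all named models. Their median was 2.60, with a range from 1.09 to 4.85. On label1 they ranged from 0.02 to 0.42 with a median of 0.20. Most of them code for histone H2B, which packs DNA in nucleosomes, and the member that missed the limit was *HTA2*, the single H2A gene among them, with 1.19 and 0.99. *HTB10* (model 112775) was the highest with 4.34 and 5.37 by probes 1 and 2, but 1.31 by probe 3, and it had 0.08 and 0.42 on label1. Probe 3 read above 0 in all 28 models, at least 2-fold in 14 of them, with a median of 0.99. The H2B genes are near-identical copies, so their probes can share transcripts, and 28 models are not 28 independent readings. Of the 28, 27 were named from the starvation-responsive lists of the study, so their number and uniformity depend in part on how members were found.

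Genes of DNA replication and cell division were few. Of 6 measured, 3 were higher, against 24.7% of all named models. They were *RFC2* of the replication factor C complex (model 185418) with 4.32 and 2.26, *SMC5B* of chromosome maintenance (model 30939) with 3.26 and 3.39, and *CDC48* (model 134171) with 1.29 and 1.31. Of 14 models of the spliceosome and its small nuclear RNAs, 8 were lower and 1 was higher, against 23.5% and 24.7% of all named models. Their median was -1.73 on label2 and 0.24 on label1. The U2 RNA *U2g* (model 205812) had -3.88, -3.98 and -1.61 on label2 and 0.28 and 0.27 on label1. The U5 RNA *U5f* (model 205817) had -2.35 and -2.40 by probes 1 and 2 but 0.78 by probe 3. Copies of such RNAs also share sequence.

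Genes of protein synthesis and the flagella gave smaller values. Of 8 translation factors, 4 were lower, against 23.5% of all named models, and none was higher. Their median was -1.26, and the lowest was the chloroplast elongation factor *EFG1* (model 97127) with -2.90, -3.46 and -3.73. Of 3 plastid ribosome genes, 2 were lower. The 3 cytosolic ribosome genes did not differ by the rule, but 2 of them were saturated in both channels. Of 27 flagella genes, 7 (25.9%) were lower and 2 (7.41%) were higher, with a median of -0.49, and the lower share was close to the 23.5% of all named models. They ran from *FAP260*, a flagella-associated membrane protein, at -2.30 to *TUB2*, beta tubulin, at 1.58. Of 8 chaperones, 2 (25%) were higher and 2 (25%) were lower, close to the 24.7% and 23.5% of all named models, so the count sets this list apart in neither direction. *HSP22D*, a small heat shock protein (model 189779), read 6.17, 4.16 and 6.28 on label2 and -0.30 and -0.05 on label1, and *HSP22A* (model 134508) read 4.0, 2.05 and 2.39 with probe 1 saturated in Cy5, whereas the DnaJ-like *DNJ1* (model 170453) read -2.85, -2.0 and -1.79.

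**Figure D4:**
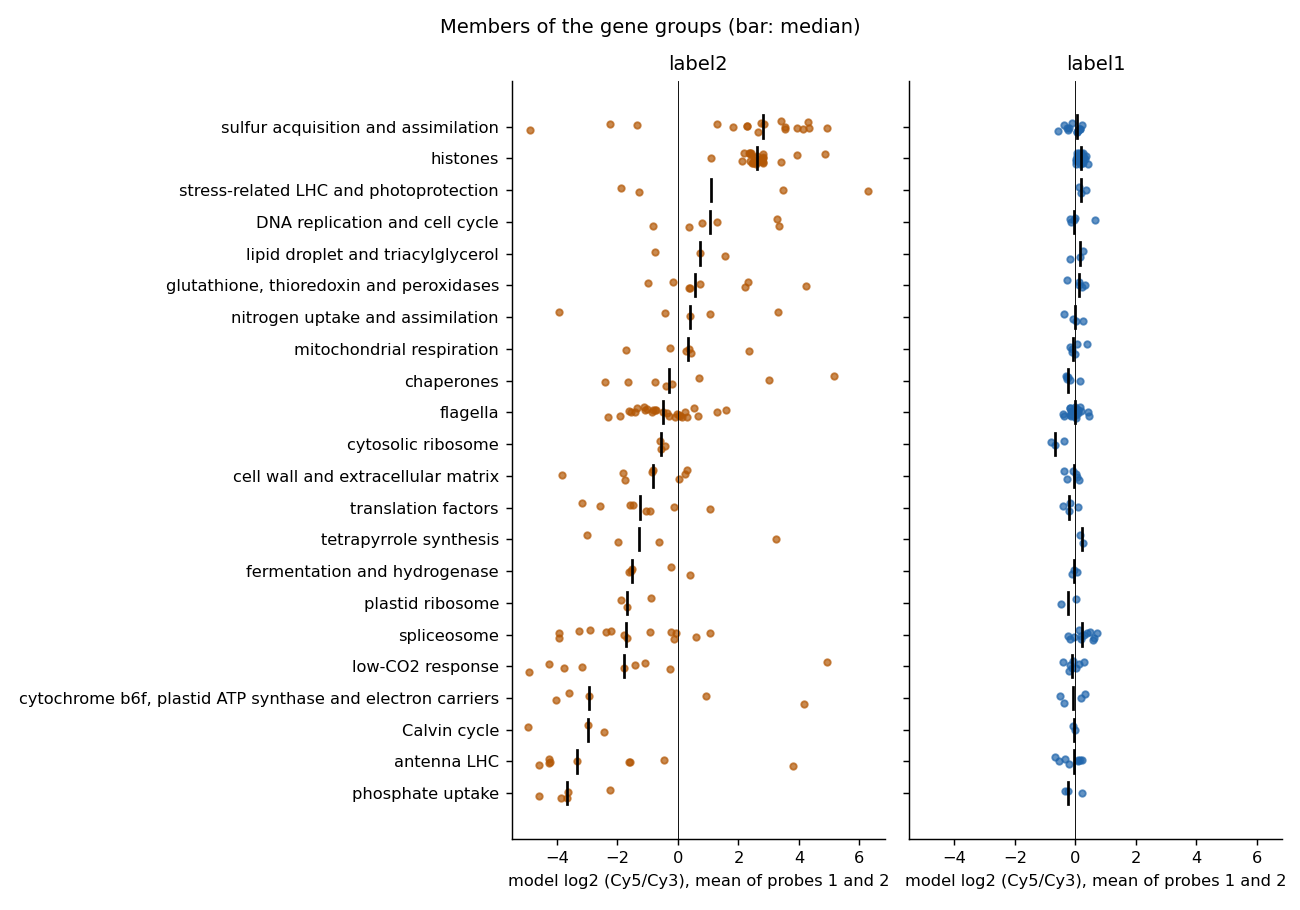
Model log2 (Cy5/Cy3), the mean of probes 1 and 2, for every member of the gene groups with at least 3 measured members (points) and the group median (bar), on label2 (left) and label1 (right). On label2 sulfur acquisition (median 2.81) and histones (2.60) lie on the right and phosphate uptake (-3.66) and antenna LHC (-3.35) on the left, while on label1 the points stay near 0.

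Outside these groups, the named models at the top of label2 included *HPD1*, 4-hydroxyphenylpyruvate dioxygenase of tyrosine breakdown and tocopherol synthesis (model 149028). It read 5.62, 5.83 and 5.45 on label2 and -0.15 and -0.03 on label1, a 52.9-fold higher Cy5 signal with no spot saturated. Model 143696, described as a vanadium haloperoxidase, read 5.59, 4.73 and 5.0 with probe 1 saturated in Cy5, and *SPP1C*, a signal peptide peptidase (model 196107), read 3.98, 5.21 and 5.52. *GSTS1*, a glutathione S-transferase (model 193661), read 4.32, 4.17 and 3.87 with saturated Cy5 spots. All 4 thus had 3 probes in accord.

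At the bottom stood *ERM1*, an ERD4-related membrane protein (model 206128), with -5.52 and -6.40 by probes 1 and 2 and -0.29 by probe 3 on label2, and -0.02 and 0.01 on label1. Its intensities by probe 1 were 686.2 in Cy5 and 31467 in Cy3 of label2, and 14704 in Cy5 and 14866 in Cy3 of label1. Model 101671, described as a malonyl-CoA:acyl-carrier-protein transacylase of fatty acid synthesis, had -4.93 and -3.06 by probes 1 and 2 and 1.51 by probe 3. Model 136810, described as a geranylgeranyl reductase, which supplies the side chain of chlorophyll, had -4.11, -3.83 and -0.85. In these 3 models probe 3 did not repeat the size, and in 1 of them not the direction.

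The 2 models that differed on label1 had no gene name. Model 146448 had -1.38 and -1.13 on label1 and was lower on label2 too, with -1.76, -1.53 and -1.73 by probes 1 to 3. Model 177997 had -1.21 and -2.80 on label1, where Cy5 of probe 2 was not well above background. It had -0.27 and -0.31 on label2, where probe 2 was not well above background in either channel, so the model was not measured there. Neither was bright. The intensities of probe 1 on label1 were 16.8 in Cy5 and 43.7 in Cy3 for model 146448, and 83.8 in Cy5 and 194.0 in Cy3 for model 177997.

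The spike-in probes, which bind RNA added during labeling and no algal transcript, also differed between the arrays. All 10 had a lower log2 ratio on label2 than on label1 and than on each of the 6 cc3491 arrays. The median over the 10 was -2.62 on label2 and -0.17 on label1, and the difference of label2 from label1 ran from -3.02 to -1.10 with a median of -1.92. In uncorrected intensities this difference lay in Cy5, where the median difference of label2 from label1 was -1.90 log2 units, against -0.10 in Cy3. The uncorrected median of the algal spots was 7.10 in Cy5 and 6.56 in Cy3 of label2, and 6.77 in Cy5 and 6.34 in Cy3 of label1, on the log2 scale. Across the 10 spike-ins the order was nearly kept, with r = 0.965 between label2 and label1. The part of the spike-in difference in the values of the genes was not tested.

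**Figure D5:**
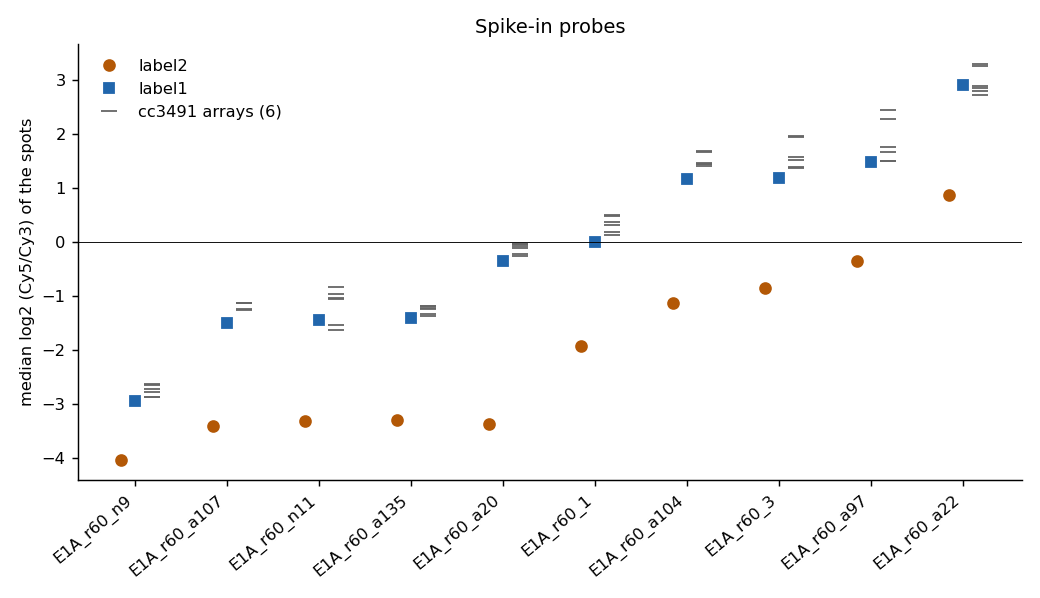
Median log2 (Cy5/Cy3) over the spots of each of the 10 spike-in probes (22 to 32 spots each) on label2 (circles), label1 (squares) and the 6 cc3491 arrays (dashes). The label2 points lie below all others for each of the 10 probes.

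The label2 ratios were then set against those of the starved cc3491 cultures. On arrays 3 to 6 the mean log2 ratio was -0.29 for *ATS2* and -0.16 for *SIR1*, but 3.04 for *CDO1*. These arrays thus carried the sulfur response in part of its genes only. A low correlation with them therefore cannot show whether label2 reads like an array of starved against unstarved RNA. On cc3491 arrays 3, 4, 5 and 6, between 4643 and 6707 models were measured, and 7.69%, 7.6%, 9.6% and 8.87% of them differed by the same rule. Across the models shared with each array, the log2 ratios of label2 correlated with those of arrays 3 to 6 at r = 0.19 to 0.21. Those of label1 correlated with them at 0.04 to 0.12. Among arrays 3 to 6 themselves the correlations lay between 0.85 and 0.98 over 3652 models. Over the 4589 models measured on label2 and on all 4 cc3491 arrays, 721 were higher on label2 and 113 on all 4 cc3491 arrays, and 41 were in both lists, 5.69% of the 721 and 36.3% of the 113. Of the 644 lower on label2 and the 98 lower on all 4 arrays, 36 were shared, 5.59% of the 644 and 36.7% of the 98. A further 9 models were higher on label2 and lower on all 4 arrays, and 12 the reverse. Array by array, 7.15% to 10.6% of the models higher on label2 were also higher on the cc3491 array. Of all models shared with that array, 3.33% to 4.76% were higher there. For lower models these shares were 6.86% to 11.9%, against 2.84% to 6.28% of all shared models.

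In limma, which here assumes that the lone label2 array varies like the 4 cc3491 arrays, the model log2 ratio of label2 differed from their mean in 321 of 4589 models (6.99%) at a Holm-adjusted p under 0.05 and at least 2-fold, 176 higher (3.84%) and 145 lower (3.16%). In 265 of the 321, label2 was beyond 2-fold and the cc3491 mean within it. In 11 models label2 was beyond 2-fold higher and the cc3491 mean beyond 2-fold lower, and in 18 models the reverse. The count was 46 to 68 when any 1 of the 4 cc3491 arrays was left out, so it rested on their number, and the lower calls then equalled or outnumbered the higher ones (18 higher and 29 lower without array 3 or without array 4, 29 and 39 without array 5, and 23 and 23 without array 6). Label2 lay on another slide than arrays 3 to 6, and its Cy3 RNA is labelled 24 h where theirs is labelled 0 h. The Cy5 RNA is labelled 24 h on label2, and 72, 96, 24 and 48 h on arrays 3 to 6 in a label field other than the titles. Strain, slide, Cy3 RNA and time cannot be told apart here. According to the methods some of the 6 cc3491 arrays were technical replicates, and the p-values may therefore be too small.

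Some of the named genes with the greatest differences had opposite signs on label2 and in cc3491. *LHCSR1* had a mean log2 ratio of 6.28 on label2 and between -3.90 and -3.72 on cc3491 arrays 3 to 6, and its difference was 10.07 (SE 0.11, limma Holm-adjusted p = 3.05e-05), a lower bound because of the saturated spots. It was called without any 1 of the 4 arrays, with adjusted p between 0.00113 and 0.00188 in limma. *SLT3* had -4.89 on label2 and between 1.17 and 1.56 on the cc3491 arrays, a difference of -6.24 (SE 0.19, limma Holm-adjusted p = 0.00494), and the call was kept in 2 of the 4 fits with 1 array left out. *ATS2* had 4.13 on label2 and between -0.42 and -0.10 on the cc3491 arrays, a difference of 4.42 (SE 0.16, limma Holm-adjusted p = 0.0103, kept in 1 of the 4 fits). *PSAH* and *PETO* differed by -4.51 and -3.83 and kept their calls in all 4 fits.

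Other genes of label2 differed less from cc3491 or could not be compared. *CDO1* had 4.33 on label2 and between 2.82 and 3.21 on the cc3491 arrays, a difference of 1.29 (limma Holm-adjusted p = 1). *FMG1-B* had -3.02 on label2 and between -2.89 and -2.66 on the cc3491 arrays, and *NRX2*, a nucleoredoxin (model 182094), had 2.32 and between 2.05 and 2.33. *CAH1* had -4.27 on label2 and -4.21, -4.06 and -3.04 on arrays 3, 4 and 5, without a reading on array 6. *ARS1*, *ARS2*, *ECP76* and *ECP88* were not measured on any of the 4 cc3491 arrays by the rule of probes 1 and 2. Single probes were above background in a few cases. Probe 1 of *ECP76* had 4.27 on label2 and 4.34 and 3.72 on arrays 3 and 4, where its Cy3 signal was not well above background, and probe 1 of *ARS2* had 4.21 on label2 and -0.40 on array 4. *HTB2*, a histone H2B gene tested in limma (model 168516), had 3.39 on label2 and between 0.25 and 0.40 on the cc3491 arrays, a difference of 3.07 (SE 0.10, Holm-adjusted p = 0.00484, kept in 1 of the 4 fits).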

How the data were processed

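RNA of both label arrays and of 6 cc3491 arrays was measured on 1 Agilent 2-colour design. Per the file headers, the authors deposited the output of Agilent Feature Extraction 10.7.3.1: processed intensity per spot and channel (background, trend and dye corrected), uncorrected median intensity, log10 ratios, a p-value per spot and marks. A deposited matrix of values held the same log10 ratios of Cy5 over Cy3. No column of values for single samples was left unmatched (0).

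Log2 ratios of processed intensity were taken without further normalization. Control and marked spots were left out, saturated spots kept, and spots of a probe averaged. Models differing needed 2-fold in probes 1 and 2, the fold limit of the methods. limma 3.58.1 (R 4.3.3, version 1.17.8 of data.table, Python 3.11, pandas 2.3.3, matplotlib 3.10.9) compared label2 with cc3491 arrays 3 to 6, with Holm adjustment as in the methods. Tested on data simulated for that comparison over 4589 models, it called 0, 21, 33 and 43 of 50 models changed 2-, 4-, 8- and 16-fold, and 0 of 4389 unchanged ones. The simulation drew label2 and arrays 3 to 6 as independent, with the same spread for each model. It therefore cannot show the rate of false calls where label2 varies otherwise or arrays share a slide (correlation within a slide 0.534). No depth applies to arrays, and their number limits the precision.

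The members, gene lists and named genes were chosen with earlier results of these data known. Named were the 12 highest and the 12 lowest named models on label2, a fixed list of genes, up to 3 members per group, the models differing on label1, and 5 models at each end of the limma comparison. Names came from the lists of the study and from RefSeq locus tags, which matched 12302 of 14557 models. Of 45 models named in the nitrogen list and in another list, 18 had different names. Lists for the proteasome, autophagy and tRNA synthetases found no measured member. Sequences and coordinates were not used here. Alternatives covered background correction, normalization, filters, fold limit, probes, adjustment and arrays.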

Additional observations from a re-analysis of the deposited data

Results flagged for a closer look

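Among 70 named models measured on all 4 of cc3491 arrays 3 to 6, 1 array stood apart from the other 3 by Dixon's criterion in 2 models, a distance that chance alone gives in about 1 of 20 groups. For *NAB1* the gap of array 6 (-2.94, against -3.83 to -3.68 on the others) made up 0.8416 of the range. For *ELI3* the gap of array 5 (-1.84, against -1.0 to -0.88) made up 0.8755 of the range. On label2 these genes had model log2 ratios of -2.91 and 3.48.

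The ratio of label2 differed from that of the cc3491 arrays in 321 of 4589 models by limma. The models with the greatest differences in both directions had no gene name besides *LHCSR1* and *SLT3*. Model 187117 had 4.64 on label2 and between -2.03 and -1.92 on the cc3491 arrays, and model 205947 had 5.61 and between -0.67 and -0.45. Model 184989 had 4.84 on label2 and between -1.11 and -0.47 on the cc3491 arrays, and model 188728, with 0.24 on label2, was apart through its values of -5.20 to -4.87 on the cc3491 arrays. Model 184099 had -4.77 on label2 and between 1.88 and 2.02 on the cc3491 arrays. Models 80367, 195502 and 195500 gave near-identical readings, with -3.65, -3.62 and -3.60 on label2 and 2.33 to 2.73 on the cc3491 arrays.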

How the results depend on the processing

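The 2209 models differing on label2 became 1091 (528 higher, 563 lower) with normexp background correction and loess, 618 at 4-fold, 3929 at 1.5-fold and 1189 when probe 3 had to pass too. With uncorrected intensities minus local background the count was 2121, but the higher share was 34.7% instead of 43.7%. The 2 models of label1 became 0 with normexp, at 4-fold, with probe 3 and with both channels above background, 1 with uncorrected intensities, 4 without a filter, 7 beyond the 99th percentile of label1 and 101 at 1.5-fold. The SD on label1 was 0.139 with normexp. Probe 3 correlated with probes 1 and 2 at r = 0.62 and 0.62 on label2, and with probe 1 at 0.16 on label1. The 321 limma calls (2908 at an unadjusted p under 0.05) became 1608 with Benjamini-Hochberg adjustment, 610 with both channels above background, 6 of 143 models with all 6 cc3491 arrays, which leave few models, 46 to 68 without 1 array, and 226 with slide as a random block (correlation within a slide 0.534), a setting chosen after seeing the data. Of 33 named calls, 7 held without each array, 9 in none of these 4 fits and 29 with the slide block. The balance of these calls was not stable. It was 176 higher and 145 lower in all 4 arrays, 18 and 29 without array 3 or without array 4, 29 and 39 without array 5, 23 and 23 without array 6, and 0 and 6 with all 6 arrays. No single result changed its sign in the settings run. The ratios of named models on label2 moved by more than 0.5 in 47 cases, 43 of them with normexp, and by less in 716. Of the group medians on label2, 4 moved by more than 0.5 with normexp and 21 did not. With loess alone all 25 stayed within 0.5. With normexp the median of the low-CO2 genes was -0.68 instead of -1.78, and that of the spliceosome -1.03 instead of -1.73. Causes were not tested, except that stricter limits keep fewer models by construction. No paired analysis was possible, because the numbers of the label arrays and of the cc3491 arrays come from separate titles and name no pairs. Saturated spots hide larger ratios, and dim spots on arrays 3 to 6 leave most label2 models without a comparison.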
